A study of Mus musculus with 16 samples.

Results

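The genes described in mouse liver were 9 genes of retinoid storage, oxidation and transport, chosen by symbol: Rbp4, Lrat, Retsat, Bco1, Rdh16, Rdh11, Dhrs3, Cyp26a1 and Rarb. They were matched to 9 of the 35275 Ensembl gene IDs of the deposited table. All 9 passed the filter on low values, which kept 11298 genes. RNA was sequenced from livers of 4 groups with 4 libraries each: WT mice on the control diet, WT mice on the ethanol diet, and mice that lack Zfp36l1 in the liver (LKO) on either diet. Strain, sex, age, what the diets held, how long they were fed and the promoter behind the liver deletion are not given in the labels. The labels do not say whether the libraries of a group came from separate animals, so the p-values measure the spread between these libraries.

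The liver takes up vitamin A as retinol, and its stellate cells store it as retinyl esters in fat droplets, while hepatocytes send retinol into the blood on a carrier protein. Retinol is oxidised to retinal and then to retinoic acid, a ligand of nuclear receptors, and each step has enzymes that run it back or clear its product. Ethanol is oxidised by some of the same families of dehydrogenases, and long ethanol intake is known to lower the vitamin A stores of the liver. Zfp36l1 encodes an RNA-binding protein that recognises AU-rich stretches and hastens the decay of the transcripts that carry them.

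Of the 9 genes, Bco1, which encodes the enzyme that cleaves beta-carotene to retinal, was raised on the ethanol diet in both genotypes, 8.35-fold in WT and 5.6-fold in LKO by the ratio of mean FPKM. Dhrs3, which encodes an enzyme that reduces retinal back to retinol, was lowered when the ethanol response was averaged over both genotypes. Cyp26a1, the main enzyme of retinoic acid breakdown in liver, was 3.23-fold higher by mean FPKM on ethanol in LKO. In WT 1 ethanol library lay far above the other 3, and the difference of mean log2(FPKM + 1) was −0.40. Neither Cyp26a1 difference passed the test across all genes. Rbp4, Lrat, Retsat, Rdh16, Rdh11 and Rarb did not pass that test in any comparison fitted on all libraries. No gene of the 9 passed it between LKO and WT on either diet.

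Zfp36l1 itself lay at 9.30 to 25.5 FPKM in the 8 WT libraries and at 0.572 to 1.76 in the 8 LKO libraries. The markers of hepatocytes were abundant in each library, with 8 genes summing to 40760 to 68930 FPKM. WT ethanol library 2 stood apart from the rest. It held 9890475 reads against 19069903 to 24768569 in the others, 22.5% of its reads were mitochondrial against 3.64 to 6.97%, and its rank correlation across genes with other libraries was 0.664 to 0.721 against 0.858 to 0.985 among the others. It also carried the Y-linked transcript Ddx3y at 1.43 FPKM, which lay at 0 to 0.0448 in the other 15, while Xist was at 6.62 FPKM against 13.7 to 49.4. Within groups the remaining libraries fell on opposite sides of the first component of variation (39.96% of the variance within groups), with libraries 1 and 2 of each group opposite libraries 3 and 4. No batch is named in the labels. The side of libraries 1 and 2 has library 1 as its only WT ethanol library, since library 2 was left out of the split.

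The promoters of the 9 genes were searched for the direct repeats that retinoid receptors and their partners are known to bind, because Cyp26a1 and Rarb are textbook targets of retinoic acid. RefSeq promoter windows of 300 bases on GRCm38.p6, 13 in all, were matched for 9 of 9 genes. The half-site was AGGTCA, or the variant form AGTTCA, or the further form GGTTCA, or else the form GGGTCA, in the same direction on either strand, with 1, 2 or 5 bases between them. 3 of the 9 genes held such a repeat. Over 27025 genes, the share with a repeat was 0.263% for spacing 1, 0.311% for spacing 2 and 0.115% for spacing 5. The 200 bases that contain each repeat follow, 5′ to 3′ on the gene's strand, with the repeat in capitals.
Cyp26a1 (chr19:37697596-37697795, plus strand, spacing 5, half-sites on the opposite strand): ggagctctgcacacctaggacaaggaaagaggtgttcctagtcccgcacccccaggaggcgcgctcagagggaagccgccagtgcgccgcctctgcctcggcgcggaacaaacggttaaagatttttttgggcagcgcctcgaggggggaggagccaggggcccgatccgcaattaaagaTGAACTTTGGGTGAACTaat
Rarb (chr14:16575489-16575688, minus strand, spacing 5, half-sites on the printed strand): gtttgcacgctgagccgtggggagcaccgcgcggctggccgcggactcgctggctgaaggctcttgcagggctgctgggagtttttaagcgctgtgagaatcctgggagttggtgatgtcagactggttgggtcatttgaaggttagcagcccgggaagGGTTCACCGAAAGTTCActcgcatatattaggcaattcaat
Bco1 (chr8:117095653-117095852, plus strand, spacing 1, half-sites on the opposite strand): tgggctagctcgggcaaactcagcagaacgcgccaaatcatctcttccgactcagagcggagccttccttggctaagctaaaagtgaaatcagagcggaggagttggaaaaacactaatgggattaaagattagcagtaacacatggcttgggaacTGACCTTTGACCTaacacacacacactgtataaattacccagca
The repeat ends 16 bases before the RefSeq start site of its window in Cyp26a1, 37 bases before it in Rarb and 44 bases before it in Bco1. These start sites differ from the ends of the GENCODE gene spans printed below. The Rarb window lies inside the printed span of Rarb, far from its 5′ end. A match describes the letters of these windows and is no evidence that a factor was bound. Of these 3 genes, Bco1 passed the test for ethanol, and Cyp26a1 and Rarb did not.

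Levels differed widely among the 9 genes. On the length-scaled FPKM values, Rbp4 was the highest, with a median of 3379 FPKM over the 16 libraries, followed by Retsat with a median level of 125.8 FPKM. Dhrs3 (32.5 FPKM) and Rdh16 (29.8 FPKM) had median levels close to each other and their ranges over libraries overlapped. Rdh11 (11.1 FPKM), Cyp26a1 (10.3 FPKM), Bco1 (5.99 FPKM) and Lrat (4.0 FPKM) followed, again with overlapping ranges. Rarb was the lowest, with a median of 2.15 FPKM and with 11 reads in WT ethanol library 2 and 76 to 226 reads in the other 15 libraries.

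**Figure D1:**
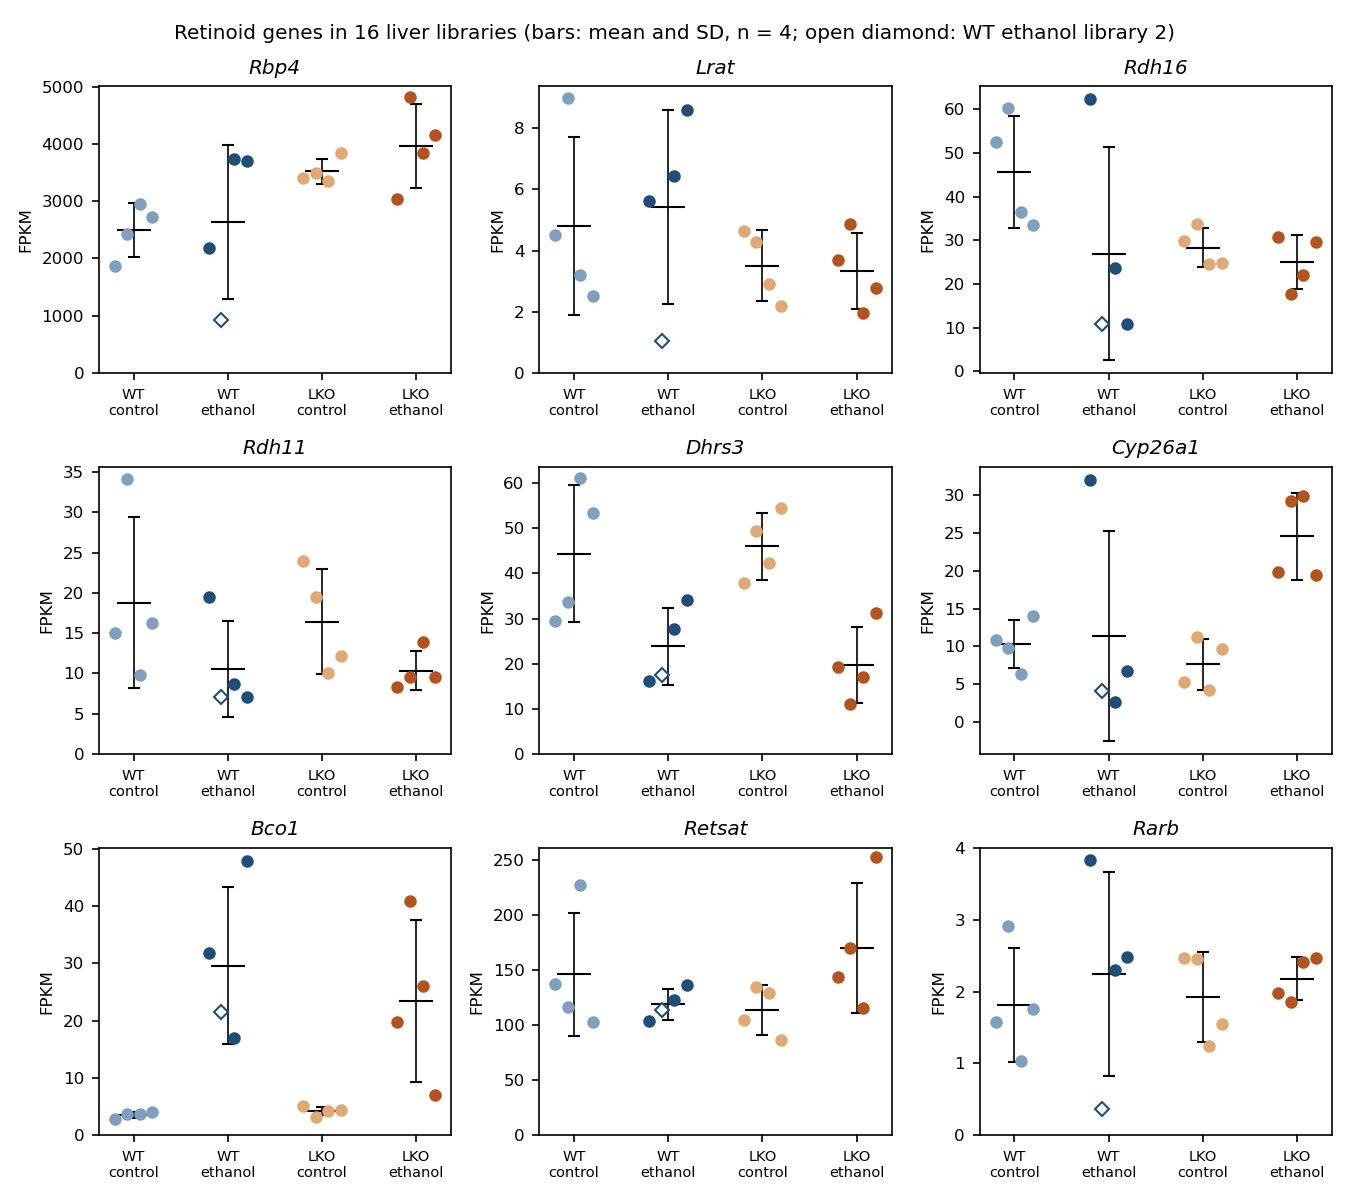
Levels of the 9 retinoid genes, 1 panel per gene, with FPKM on the vertical axis and the 4 groups on the horizontal axis. Points are libraries, the open diamond is WT ethanol library 2, and bars give the mean and SD of 4 libraries; Bco1 lies at 2.78 to 5.0 FPKM in the 8 control diet libraries and at 6.98 to 47.9 in the 8 ethanol diet libraries.

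Rbp4 (chr19:38116629-38125281, minus strand) encodes the protein that carries retinol from the liver into the blood. It measured 1868, 2425, 2956 and 2721 FPKM in WT control libraries 1 to 4 and 3412, 3485, 3346 and 3846 FPKM in LKO control libraries 1 to 4. All 4 LKO libraries lay above all 4 WT libraries on the control diet, a separation that 9.25% of the genes tested showed. The mean was 2492 ± 470 FPKM in WT and 3522 ± 224 FPKM in LKO (SD, n = 4 each). The difference in mean log2(FPKM + 1) was 0.52 (95% interval −0.23 to 1.27, adjusted p = 0.9997, limma with Benjamini-Hochberg adjustment). On the ethanol diet Rbp4 measured 2183, 930.2, 3732 and 3699 FPKM in WT and 3034, 4817, 3846 and 4163 FPKM in LKO. There the groups overlapped, and WT ethanol library 2 was the lowest of all 16 libraries. The genotype difference on ethanol was 0.76 (95% interval 0.01 to 1.52, unadjusted p = 0.0461, adjusted p = 0.414 by limma) and was 0.33 (adjusted p = 0.443 by limma) without WT ethanol library 2. Averaged over both diets, LKO exceeded WT by 0.64 (adjusted p = 0.384 by limma), or by 0.42 (adjusted p = 0.147) without that library. Ethanol against control diet gave −0.09 in WT and 0.15 in LKO for Rbp4, both within the spread between libraries. The sign of the WT value turned without WT ethanol library 2, to 0.34 (adjusted p = 0.376 by limma), and the WT value was 0.04 among libraries 1 and 2 and 0.39 among libraries 3 and 4. Within the sides, LKO minus WT on the control diet was 0.70 among libraries 1 and 2 and 0.34 among libraries 3 and 4, and on the ethanol diet it was 0.81 and 0.11.

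Lrat (chr3:82892579-82903973, minus strand) encodes the enzyme that makes retinyl esters, and in liver it is a marker of stellate cells. Lrat measured 4.50, 8.98, 3.19 and 2.51 FPKM in WT control libraries and 5.64, 1.06, 6.44 and 8.60 FPKM in WT ethanol libraries. In LKO the values were 4.65, 4.30, 2.90 and 2.18 FPKM on the control diet and 3.71, 4.87, 1.96 and 2.78 FPKM on ethanol. The 4 highest values were all in WT libraries, 1 on the control diet and 3 on ethanol, and the groups overlapped in all comparisons. LKO against WT on the ethanol diet gave −0.41 on the log2(FPKM + 1) scale (95% interval −1.30 to 0.47, adjusted p = 0.728 by limma). Without WT ethanol library 2, which had the lowest Lrat value of all, this difference was −0.89 (unadjusted p = 0.0143, adjusted p = 0.214 by limma), and without WT ethanol library 4 it was −0.15. Within the side of libraries 3 and 4 it was −1.34, and within the other side, which held 1 WT ethanol library, −0.34. The Lrat ethanol difference in WT was 0.07 with all libraries, 1.14 among libraries 3 and 4 and −0.16 among libraries 1 and 2. An antisense gene, Rbm46os, overlaps Lrat, and the strand setting of the counting is not given in the sources used here, so reads of the pair cannot be told apart.

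Because Lrat is a stellate cell gene, its values are set beside 13 other stellate cell markers, which summed to 105.4 to 208.6 FPKM in WT control, 116.1 to 296.3 in WT ethanol, 122.5 to 189.8 in LKO control and 151.5 to 219.7 in LKO ethanol libraries. None of the 13 was at 0 in all libraries. In WT ethanol libraries 1 to 4 the summed markers were at 156.2, 116.1, 292.3 and 296.3 FPKM, and the lowest sum went with the lowest Lrat value in that group. The same held in WT control and in LKO control, with library 4 lowest in each. It did not hold in LKO ethanol, with the lowest sum in library 1 (151.5) and the lowest Lrat value in library 3 (1.96), where the sum was 185.5. Kupffer and sinusoidal endothelial cell markers were also higher in WT ethanol libraries 3 and 4 than in WT control libraries 3 and 4. There 6 Kupffer cell markers summed to 267.2 and 288.9 FPKM and 6 sinusoidal endothelial markers to 66.5 and 82.4, against 88.1 and 124.2 and against 44.6 and 40.6 in those controls. In WT control libraries 1 and 2 the Kupffer cell sums were 270.1 and 202.3 FPKM and the endothelial sums 74.1 and 71.4. In LKO libraries 3 and 4 the Kupffer cell sums were lower on ethanol, at 51.9 and 79.0 FPKM against 172.5 and 86.1 on the control diet. The endothelial sums there were 38.9 and 50.4 on ethanol against 38.8 and 31.2. In WT, sums of 5 cholangiocyte markers and of 8 hepatocyte markers were lower on ethanol in libraries 3 and 4. They were at 17.4 and 21.1 and at 50180 and 40760 FPKM in WT ethanol libraries 3 and 4. In WT control libraries 3 and 4 they were at 28.6 and 24.6 and at 59750 and 55180. Of the 12 stellate markers tested, 1 passed the test for ethanol in WT and 2 for ethanol over both genotypes, where 4.18% and 7.78% of all genes tested passed. The part of these cell type markers in the Lrat values was not tested. In RNA from whole liver, fewer cells of a type and less RNA per cell cannot be told apart.

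**Figure D2:**
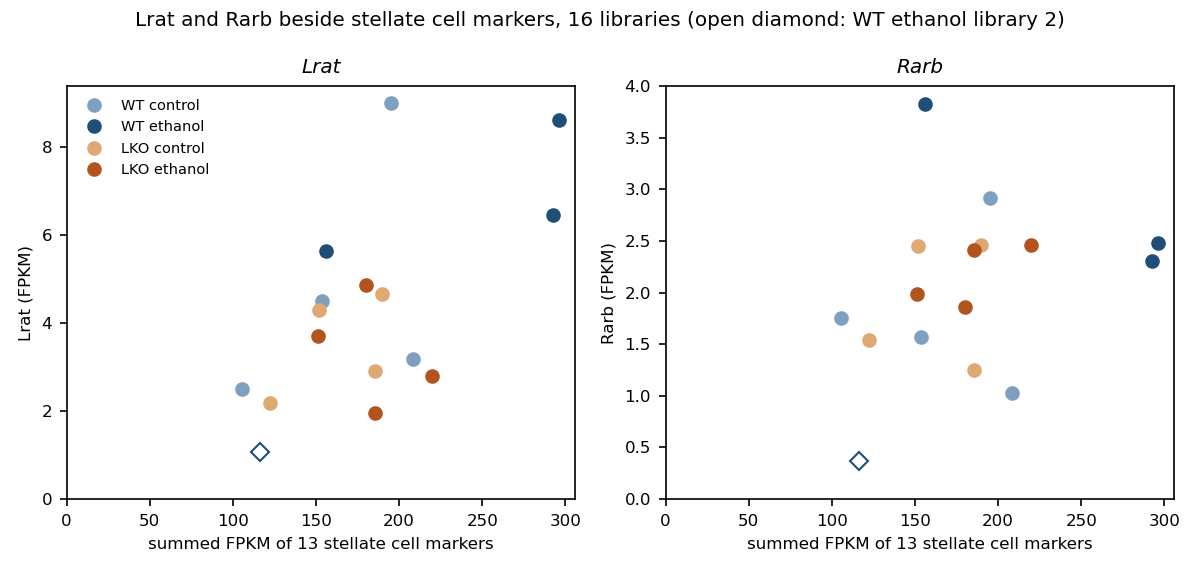
Lrat (left) and Rarb (right) in FPKM on the vertical axes against the summed FPKM of 13 stellate cell markers on the horizontal axes, 1 point per library, coloured by group. WT ethanol library 2, the open diamond, has the lowest Lrat (1.06 FPKM) and the lowest Rarb (0.367 FPKM), and WT ethanol libraries 3 and 4 have the highest marker sums.

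Retsat (chr6:72598475-72608425, plus strand) encodes retinol saturase, which reduces a double bond of retinol. Retsat measured 137.3, 115.9, 227.3 and 102.5 FPKM in WT control libraries, and 103.1, 113.4, 122.5 and 135.9 FPKM in WT ethanol libraries. In LKO Retsat measured 104.4, 134.2, 129.1 and 86.1 FPKM on the control diet and 143.7, 169.4, 115.3 and 252.3 FPKM on ethanol. Single high libraries, WT control library 3 and LKO ethanol library 4, set the spread, and the diets overlapped in both genotypes. The ethanol difference was −0.23 in WT (95% interval −0.86 to 0.40) and 0.54 in LKO (95% interval −0.09 to 1.17, adjusted p = 0.644 by limma). Gm45053 overlaps Retsat on the other strand.

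Bco1 (chr8:117095854-117133720, plus strand) had the clearest ethanol response of the 9 genes. It measured 2.78, 3.75, 3.70 and 3.94 FPKM in WT control libraries 1 to 4 and 31.9, 21.5, 17.0 and 47.9 FPKM in WT ethanol libraries 1 to 4. The LKO libraries measured 5.0, 3.22, 4.13 and 4.38 FPKM on the control diet and 19.8, 40.9, 26.0 and 6.98 FPKM on ethanol. In both genotypes each ethanol library was above each control library, and LKO ethanol library 4 was the lowest of the ethanol libraries. The means on the control and ethanol diets were 3.54 ± 0.518 and 29.6 ± 13.7 FPKM in WT, and 4.18 ± 0.738 and 23.4 ± 14.1 FPKM in LKO (SD, n = 4 each).

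The Bco1 ethanol response was 2.65 on the log2(FPKM + 1) scale in WT (SE 0.40, 95% interval 1.81 to 3.50, adjusted p = 0.00365 by limma). In LKO it was 2.02 (SE 0.40, 95% interval 1.17 to 2.86, adjusted p = 0.0330 by limma). Averaged over both genotypes it was 2.34 (SE 0.28, adjusted p = 0.000241 by limma). Bco1 was the only gene of the 9 to pass in WT, where 4.18% of the genes tested passed, and the only one in LKO, where 0.425% passed. The difference between the responses, LKO minus WT, was −0.64 (95% interval −1.83 to 0.56, adjusted p = 0.927 by limma), an interval that holds both a smaller and a larger response in LKO. The WT response passed in each of the 16 fits that left out 1 library. The LKO response failed in 8 of those 16 fits, with adjusted p up to 0.156 and values of 1.68 to 2.09 in the fits that failed. The fits that lost it left out WT control library 1, any LKO control library, or LKO ethanol library 1, 2 or 3. Without WT ethanol library 2 the responses were 2.76 in WT and 2.02 in LKO, and both passed (adjusted p = 0.00258 and 0.0129 by limma). On both sides of the split Bco1 was higher on ethanol, by 2.96 and 2.62 in WT and by 2.55 and 1.48 in LKO. Of its 50-base transcript windows 1.42% are shared with other genes, and the processed pseudogene Gm20694 lies on the same strand within its span.

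Retinol and retinal are interconverted by Rdh16, Rdh11 and Dhrs3, of which Rdh16 is known for oxidising retinol. Rdh16 (chr10:127801152-127846565, plus strand) measured 52.5, 60.3, 36.5 and 33.6 FPKM in WT control libraries and 62.3, 10.9, 23.6 and 10.9 FPKM in WT ethanol libraries. In LKO Rdh16 measured 29.9, 33.8, 24.5 and 24.9 FPKM on the control diet and 30.7, 17.8, 22.1 and 29.7 FPKM on ethanol. In WT, 3 of 4 ethanol libraries lay below all controls, while WT ethanol library 1 lay above all of them. The ethanol difference in WT was −1.07 (95% interval −1.96 to −0.18, unadjusted p = 0.0214, adjusted p = 0.168 by limma), and in LKO it was −0.19 (95% interval −1.08 to 0.70). Without WT ethanol library 1 the WT difference of Rdh16 was −1.58 (adjusted p = 0.00803 by limma), and without WT ethanol library 2 it was −0.78 (adjusted p = 0.237). Within the sides the WT difference was 0.14 among libraries 1 and 2, with WT ethanol library 1 alone, and −1.07 among libraries 3 and 4, and the LKO difference was −0.43 and 0.05. LKO minus WT on ethanol was 0.23 for Rdh16 with all libraries, −1.38 among libraries 1 and 2 and 0.64 among libraries 3 and 4. LKO minus WT on the control diet was −0.65 for Rdh16 (95% interval −1.53 to 0.24, adjusted p = 0.9997 by limma). Of the 50-base windows of Rdh16 transcripts, 15.1% are shared with Rdh1, Rdh7, Rdh9, Rdh19, Rdh16f1, Hsd17b6 or the overlapping pseudogene Rdh18-ps, so its level is uncertain where reads could go to a copy.

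Rdh11 (chr12:79174337-79192293, minus strand) encodes a dehydrogenase that acts on retinol and retinal. Rdh11 measured 15.0, 34.1, 9.75 and 16.2 FPKM in WT control libraries, and 19.4, 7.04, 8.63 and 7.06 FPKM in WT ethanol libraries. In LKO Rdh11 measured 24.0, 19.5, 10.01 and 12.1 FPKM on the control diet and 8.33, 9.56, 13.8 and 9.56 FPKM on ethanol. As for Rdh16, WT ethanol library 1 was far above the 3 others of its group. Averaged over both genotypes the ethanol difference was −0.66 (95% interval −1.23 to −0.10, unadjusted p = 0.0243, adjusted p = 0.147 by limma). It was −0.82 without WT ethanol library 1, where it passed the test (adjusted p = 0.0487 by limma). Among libraries 1 and 2 the Rdh11 ethanol difference was −0.22 in WT and −1.19 in LKO, and among libraries 3 and 4 it was −0.63 in WT and 0.06 in LKO. LKO minus WT on ethanol was 0.07 for Rdh11 with all libraries, −1.04 among libraries 1 and 2 and 0.51 among libraries 3 and 4.

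Dhrs3 (chr4:144892827-144928209, plus strand) reduces retinal and is itself known to be induced by retinoic acid. Dhrs3 measured 29.5, 33.8, 61.1 and 53.3 FPKM in WT control libraries and 16.1, 17.4, 27.6 and 34.2 FPKM in WT ethanol libraries. In LKO Dhrs3 measured 37.8, 49.4, 42.3 and 54.5 FPKM on the control diet and 19.2, 11.2, 17.0 and 31.2 FPKM on ethanol. In LKO all ethanol libraries lay below all control libraries, whereas in WT the groups overlapped through ethanol library 4. The means on the control and ethanol diets were 44.4 ± 15.2 and 23.8 ± 8.62 FPKM in WT, and 46.0 ± 7.40 and 19.6 ± 8.41 FPKM in LKO (SD, n = 4 each).

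The Dhrs3 response averaged over both genotypes was −1.07 on the log2(FPKM + 1) scale (SE 0.24, 95% interval −1.56 to −0.57, adjusted p = 0.0102 by limma). Bco1 and Dhrs3 were the 2 of 9 genes that passed in this averaged comparison, in which 7.78% of the genes tested passed. By genotype the Dhrs3 difference was −0.87 in WT (adjusted p = 0.151 by limma) and −1.26 in LKO (adjusted p = 0.116), and neither passed. Without WT ethanol library 2 the LKO difference passed at the same size (adjusted p = 0.0334 by limma), with an SE of 0.30 in place of 0.33. LKO minus WT response was −0.39 (95% interval −1.38 to 0.60). The averaged response of Dhrs3 passed in each of the 16 fits that left out 1 library, at −1.19 to −0.96. On both sides of the split the direction was the same, at −0.93 and −0.87 in WT and at −1.50 and −1.03 in LKO.

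Cyp26a1 (chr19:37697798-37701536, plus strand) encodes the enzyme that hydroxylates retinoic acid, and its promoter holds the repeat printed above. Cyp26a1 measured 10.9, 9.74, 6.41 and 14.1 FPKM in WT control libraries 1 to 4 and 32, 4.11, 2.6 and 6.74 FPKM in WT ethanol libraries 1 to 4. In LKO Cyp26a1 measured 5.23, 11.3, 4.25 and 9.66 FPKM on the control diet and 19.8, 29.2, 29.9 and 19.4 FPKM on ethanol. All 4 LKO ethanol libraries lay above all LKO control libraries. WT ethanol library 1 was the highest of the 16 libraries, and the other 3 of its group were among the lowest. Mean levels on the control and ethanol diets were 10.3 ± 3.16 and 11.4 ± 13.9 FPKM in WT, and 7.61 ± 3.41 and 24.6 ± 5.73 FPKM in LKO (SD, n = 4 each).

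The Cyp26a1 ethanol difference in LKO was 1.63 on the log2(FPKM + 1) scale (SE 0.51, 95% interval 0.56 to 2.70, unadjusted p = 0.00512, adjusted p = 0.222 by limma). In WT it was −0.40 (95% interval −1.47 to 0.67, adjusted p = 0.705 by limma). LKO against WT on the ethanol diet, which shares the LKO ethanol libraries with the first of these, gave 1.60 (95% interval 0.53 to 2.67, unadjusted p = 0.00589, adjusted p = 0.262 by limma). LKO minus WT response was 2.03 (95% interval 0.52 to 3.55, unadjusted p = 0.0116, adjusted p = 0.927 by limma). These differences did not pass the test across all genes.

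Leaving out WT ethanol library 1 changed the Cyp26a1 calls. Without it the LKO response kept its size of 1.63 and passed (adjusted p = 0.0400 by limma, SE 0.33 in place of 0.51), LKO against WT on ethanol passed at 2.26 (adjusted p = 0.00682), and the WT response was −1.07 (adjusted p = 0.0753). In those fits 2 of the 9 genes passed in LKO (Bco1 and Cyp26a1), where 0.472% of the genes tested passed, and 1 passed between genotypes on ethanol (Cyp26a1), where 3.47% passed. In the same fits Bco1 and Rdh16 passed for ethanol in WT, where 8.28% passed, and Bco1, Dhrs3, Rdh11 and Rdh16 passed for ethanol over both genotypes, where 9.74% passed. The sides of the split also gave opposite signs in WT. Among libraries 1 and 2, with WT ethanol library 1 as the only WT ethanol library, the Cyp26a1 ethanol difference was 1.55 in WT and 1.52 in LKO. Among libraries 3 and 4 it was −1.002 in WT and 1.75 in LKO, and LKO exceeded WT on ethanol by 2.25. The LKO response was of like size on both sides, while the genotype difference on ethanol was found on the side of libraries 3 and 4 and was −0.40 on the other. What sets WT ethanol library 1 apart was not tested.

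Rarb (chr14:16430839-16819156, minus strand) encodes retinoic acid receptor beta, whose promoter repeat is printed above. It measured 1.57, 2.92, 1.03 and 1.76 FPKM in WT control libraries and 3.83, 0.367, 2.31 and 2.48 FPKM in WT ethanol libraries. In LKO Rarb measured 2.46, 2.45, 1.25 and 1.54 FPKM on the control diet and 1.99, 1.86, 2.41 and 2.46 FPKM on ethanol. WT ethanol library 1 was the highest and WT ethanol library 2 the lowest of the 16 libraries. The ethanol difference was 0.11 in WT (95% interval −0.54 to 0.76) and 0.14 in LKO (95% interval −0.51 to 0.79), and neither passed. Without WT ethanol library 2 it was 0.48 in WT (unadjusted p = 0.0477, adjusted p = 0.186 by limma). It turned to −0.13 without WT ethanol library 1 and to −0.04 without WT control library 3. Within the sides, where WT ethanol library 2 was left out, the Rarb ethanol difference was 0.61 in WT and −0.24 in LKO among libraries 1 and 2, and 0.52 in both genotypes among libraries 3 and 4. LKO minus WT on ethanol was 0.10 for Rarb with all libraries, −0.27 without WT ethanol library 2, −0.72 among libraries 1 and 2 and 0.02 among libraries 3 and 4. Rarb overlaps Top2b, a protein-coding gene on the other strand, and an antisense gene, so reads of these genes cannot be told apart without the strand setting.

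**Figure D3:**
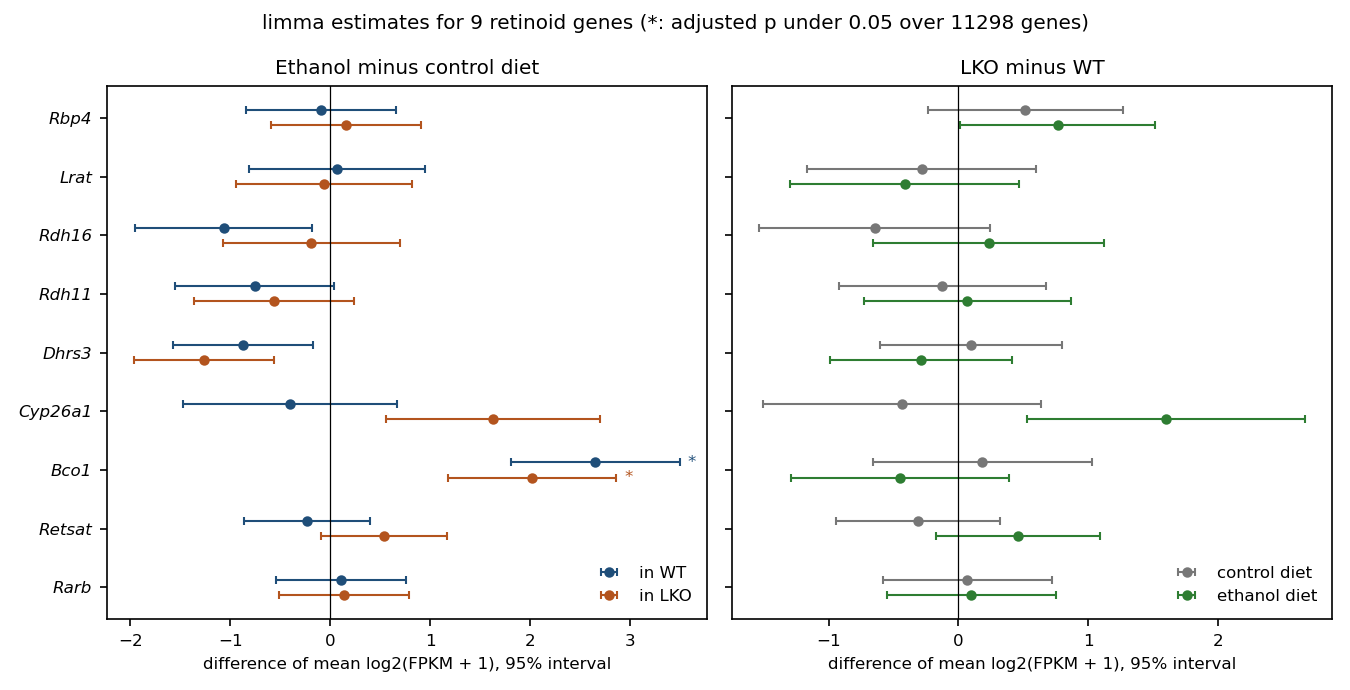
Differences in mean log2(FPKM + 1) for the 9 genes with 95% intervals of the limma fit, ethanol minus control diet on the left (blue in WT, orange in LKO) and LKO minus WT on the right (grey on the control diet, green on ethanol). An asterisk marks an adjusted p under 0.05; Bco1 carries it at 2.65 in WT and 2.02 in LKO, and no genotype difference carries one.

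For the genotype comparisons the question was whether loss of Zfp36l1 changed these transcripts. By limma, 0 of the 9 genes passed between LKO and WT on the control diet, where 0.00885% of the genes tested passed, and 0 of 9 had an unadjusted p under 0.05. For mice on ethanol, 0 of 9 passed, where 0.0797% passed, and 2 of 9 had an unadjusted p under 0.05 (Cyp26a1 and Rbp4). Averaged over both diets 0 of 9 passed, where 0.142% passed, and 1 had an unadjusted p under 0.05 (Rbp4). For the difference between the ethanol responses 0 of 9 passed, where 0.0% passed, and 1 had an unadjusted p under 0.05 (Cyp26a1). Over all 11298 genes the unadjusted p was under 0.05 for 390, 1347, 1176 and 362 genes in these 4 comparisons. Limma-voom on whole reads recovered from the FPKM values also called 0 of the 9 genes in each of them, and 1, 5, 29 and 0 genes in all.

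The groups did not overlap for 1 of the 9 genes for ethanol in WT (Bco1, 10.1% of the genes tested), 3 in LKO (Bco1, Cyp26a1 and Dhrs3, 12.3%), 1 between genotypes on the control diet (Rbp4, 9.25%) and 0 on ethanol (2.69%). The median ethanol difference of the 9 genes was −0.23 in WT and 0.14 in LKO, beside −0.02 and 0.06 over all genes tested. The median genotype difference of the 9 genes was −0.12 on the control diet and 0.10 on ethanol, beside −0.10 and −0.03 over all genes tested.

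Leaving out WT ethanol library 2 left Bco1 called for ethanol in WT (9.27% of genes passed) and Bco1 with Dhrs3 in LKO (3.67%) and over both genotypes (20.5%). The side of each library, derived from the same values that were tested, was then added to the model as a covariate. This gave Bco1 and Dhrs3 for ethanol in WT (19.7% of genes passed), Bco1, Cyp26a1 and Dhrs3 in LKO (10.8%) and Bco1 and Dhrs3 over both genotypes (32.7%). With that term, and still without WT ethanol library 2, Lrat (−0.63, adjusted p = 0.0366 by limma) and Rbp4 (0.45, adjusted p = 0.0429) passed for LKO against WT over both diets, where 11.1% of genes passed. The Dhrs3 difference in WT was then −0.85 (adjusted p = 0.0238 by limma), and the Cyp26a1 difference in LKO was 1.63 (adjusted p = 0.0392).

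The wider pathway was described from a list of 49 other retinoid genes, 39 of which passed the filter on low values. For ethanol in WT, 7 of 39 passed (4.18% of all genes tested), 3 higher and 4 lower, and the median difference was −0.06 beside −0.02 over all genes tested. In LKO 2 of 39 passed (0.425% of all genes tested), both lower, with a median of 0.06 beside 0.06. Over both genotypes 10 of 39 passed (7.78% of all genes tested), 3 higher and 7 lower, with a median of −0.09 beside 0.02. These counts were larger without WT ethanol library 2: 13 of 39 in WT (7 higher and 6 lower, with a median of 0.08 beside 0.17), 6 in LKO (2 higher and 4 lower) and 19 over both genotypes (10 higher and 9 lower). The shares of all genes tested were then 9.27%, 3.67% and 20.5%. In the genotype comparisons and the difference between responses 0 of 39 passed by limma.

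Adh4, an alcohol dehydrogenase that also oxidises retinol, had the smallest adjusted p of the list. It lay at 52.2 to 115.4 FPKM in WT control and 60.9 to 89.2 in LKO control libraries, and at 11.5 to 18.8 and 13.1 to 23.0 FPKM on ethanol, with no overlap between diets. The differences were −2.16 in WT (adjusted p = 0.00118 by limma) and −1.96 in LKO (adjusted p = 0.00563). Ces1d, a carboxylesterase that can hydrolyse retinyl esters, fell in WT by 2.34 (adjusted p = 0.00572 by limma) and was at −0.90 in LKO (adjusted p = 0.502). Mean Ces1d on the control diet was 813.7 FPKM in WT and 517.3 in LKO, and on ethanol 178.6 and 296.4. Adh7, an alcohol dehydrogenase active on retinol, fell in WT by 1.31 (adjusted p = 0.0187 by limma) and was at −0.06 in LKO. Mean Adh7 on the control diet was 12.4 FPKM in WT and already lower in LKO, at 5.35, and on ethanol it was 4.41 and 5.39. The genotype difference on the control diet was −1.06 (unadjusted p = 0.00180, adjusted p = 0.784 by limma). Tgm2, a transglutaminase known to be induced by retinoic acid, rose in WT by 1.59 (adjusted p = 0.0222 by limma) and was at 1.27 in LKO (adjusted p = 0.173), where it passed without WT ethanol library 2 (adjusted p = 0.0402). Fabp5, a fatty acid-binding protein that can also bind retinoic acid, fell in LKO by 2.77 (adjusted p = 0.0323 by limma), from 28.3 to 114.3 FPKM on the control diet to 5.07 to 12.2 on ethanol. In WT Fabp5 was at −1.09 (adjusted p = 0.275 by limma). Mean Fabp5 on the control diet was 15.4 FPKM in WT and 70.3 in LKO, and on ethanol 4.81 and 8.58. The genotype difference on the control diet was 2.33 (unadjusted p = 0.000452, adjusted p = 0.345 by limma).

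From the list, 2 genes related in role to members of the 9 were also looked at, chosen after their values were seen. Bco2, which cleaves carotenoids at another bond than Bco1, measured 9.36 to 13 FPKM in WT control, 10.1 to 13.7 in LKO control, 0 to 5.62 in WT ethanol and 2.24 to 7.40 in LKO ethanol libraries. The value of 0 was WT ethanol library 2, and no ethanol library reached a control library. Bco2 fell over both genotypes by 1.45 (adjusted p = 0.00980 by limma), or by 1.14 (adjusted p = 0.000685) without that library, while Bco1 rose. Stra6l, a liver receptor for the carrier encoded by Rbp4, measured 14.4 to 19.5 FPKM in WT control and 14.3 to 17.4 in LKO control libraries. On ethanol Stra6l measured 54.6, 10.7, 26.3 and 28.4 FPKM in WT and 28.3 to 37.4 in LKO. Stra6l rose over both genotypes by 0.85 (adjusted p = 0.0373 by limma), and by 1.05 (adjusted p = 0.000380) without WT ethanol library 2, which was the only ethanol library below the controls.

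**Figure D4:**
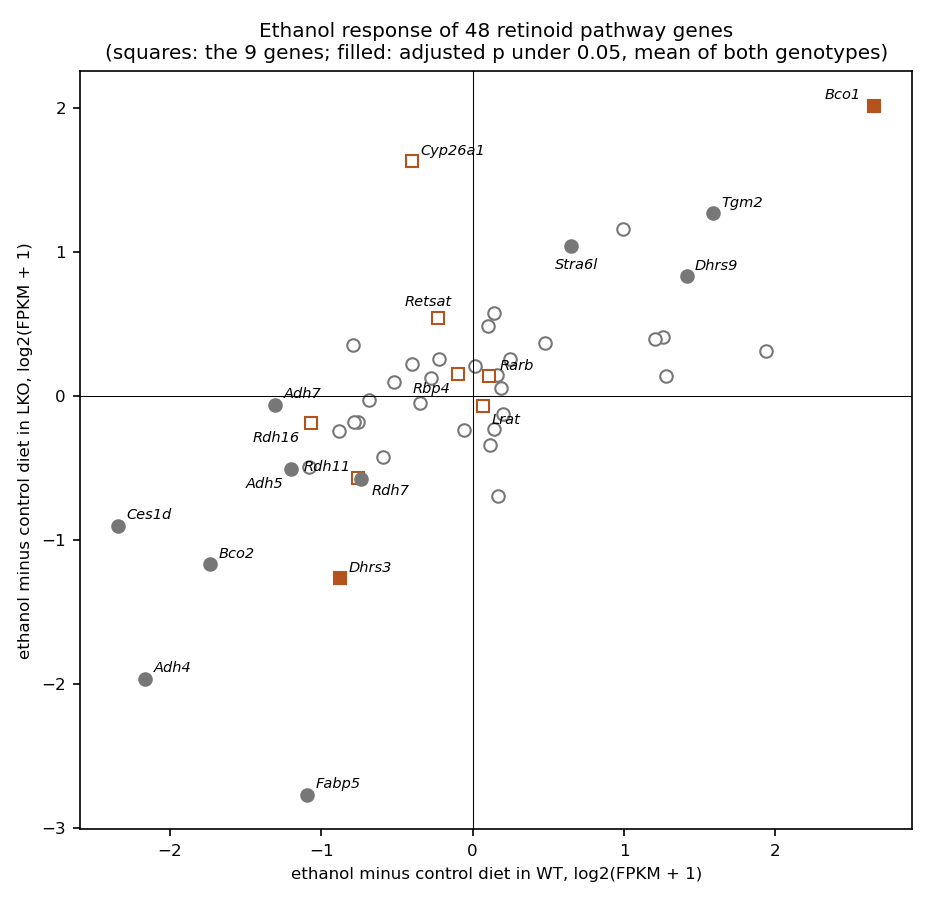
Ethanol minus control diet in mean log2(FPKM + 1), WT on the horizontal and LKO on the vertical axis, for the 9 genes (orange squares) and the 39 other retinoid genes tested (grey circles), filled where the mean over both genotypes has an adjusted p under 0.05. Bco1 lies at the upper right, Dhrs3 at the lower left with Adh4, Bco2 and Fabp5, and Cyp26a1 at −0.40 in WT and 1.63 in LKO.

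**Figure D5:**
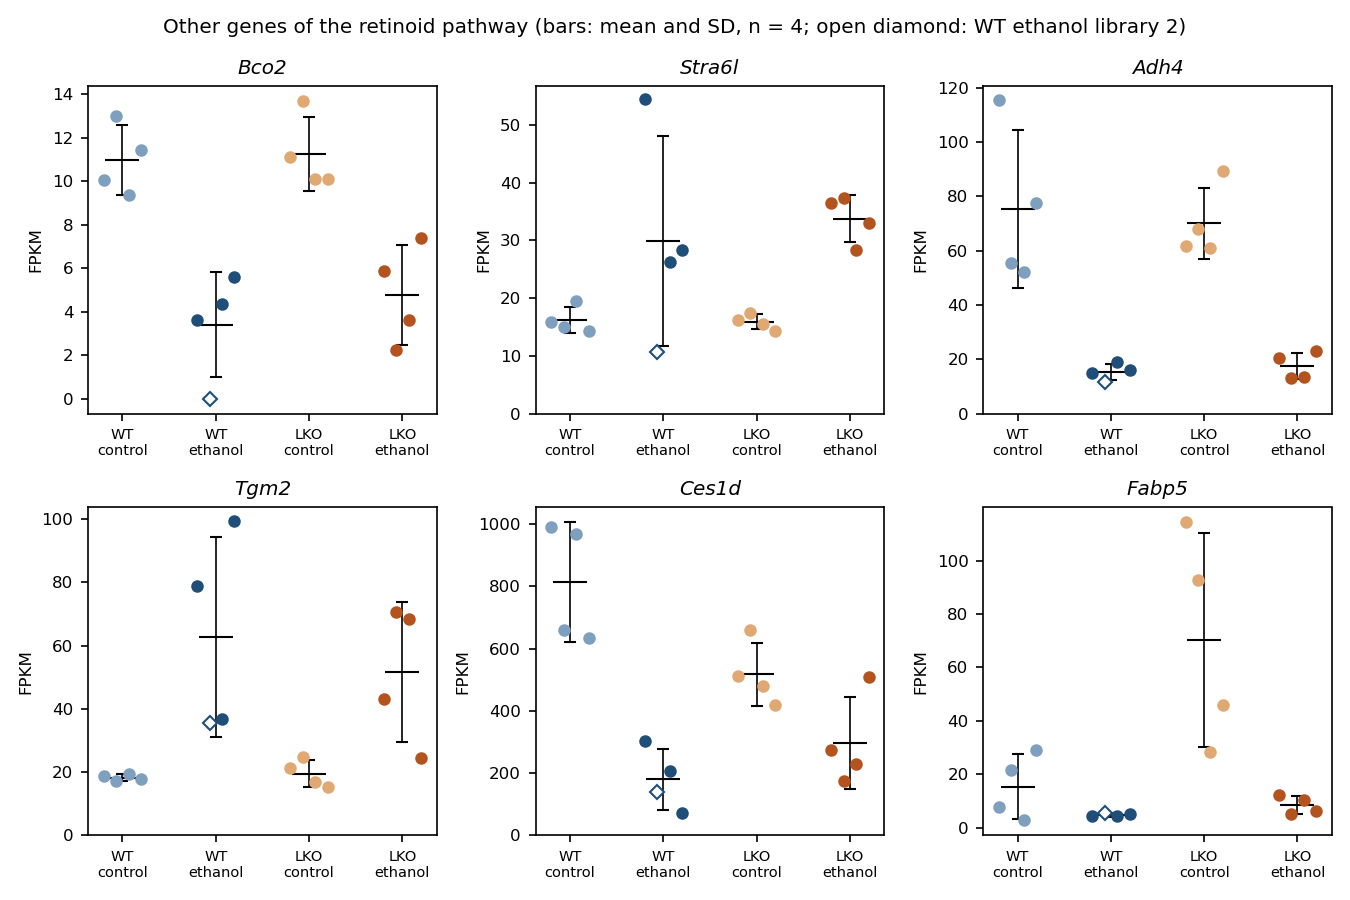
Levels of Bco2, Stra6l, Adh4, Tgm2, Ces1d and Fabp5 in FPKM on the vertical axes, by group on the horizontal axes. Points are libraries, the open diamond is WT ethanol library 2, and bars give the mean and SD of 4 libraries; Adh4 and Bco2 lie lower in each ethanol library than in each control library.

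Among the 9 genes, Rdh16 and Rdh11 ranked most alike over the 16 libraries (Spearman rho 0.69), followed by Lrat and Rarb (rho 0.64). Dhrs3 and Bco1 ranked most opposed (rho −0.67), followed by Rdh16 and Bco1 (rho −0.63). The genes of the whole table whose ranks were most like those of Bco1 were Tbrg1 (rho 0.93) and Gpr39 (0.92), and those most like Dhrs3 were Serping1 (0.94) and Gne (0.92). Cyp26a1 was most like Hsd17b2 (0.86) and Atg16l1 (0.85), Rbp4 like Cct2 (0.94) and Cers2 (0.92), and Lrat like Ptpra (0.93) and Tmem237 (0.91). Rdh16 was most like Actr6 (0.94) and Pon1 (0.92), Rdh11 like Acss2 (0.89) and Tcim (0.88), Retsat like Acadm (0.84) and Pop1 (0.81), and Rarb like Mipep (0.86) and Cep120 (0.85). These correlations describe 16 libraries that share depth, groups and the library that stood apart.

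The 3′ untranslated regions of the 9 genes were searched for TATTTAT, the AU-rich letters that Zfp36l1 is known to recognise, since the genotype comparison bears on such transcripts. The motif was present in 4 of the 9 genes (Rbp4, Lrat, Cyp26a1 and Rarb), and 27.6% of 21037 genes with an annotated region held it. The sites follow with their flanks, GRCm38, on the gene's strand with the motif in capitals.
Rbp4 (chr19:38116796-38116822, minus strand): tcttcatctcTATTTATcttagaagtt
Lrat, first site (chr3:82896906-82896932, minus strand): aatgtgtttaTATTTATagagcacaaa
Lrat, second site (chr3:82896314-82896340, minus strand): agacagtagcTATTTATatttactttt
Cyp26a1 (chr19:37701438-37701464, plus strand): tatagtatgaTATTTATgtgtctctac
Rarb (chr14:16430839-16430861, minus strand): agaataaataTATTTATtttaaa
On the control diet the LKO minus WT differences of these 4 genes were 0.52 for Rbp4, −0.28 for Lrat, −0.43 for Cyp26a1 and 0.07 for Rarb, and on ethanol 0.76, −0.41, 1.60 and 0.10. With all libraries none of them passed the test by limma, and their signs were mixed. The Cyp26a1 difference on ethanol was 2.26 and passed without WT ethanol library 1 (adjusted p = 0.00682 by limma), and it was −0.40 among libraries 1 and 2 and 2.25 among libraries 3 and 4. For Rbp4, Lrat and Rarb the differences on ethanol were 0.33, −0.89 and −0.27 without WT ethanol library 2. For the 5 genes without the motif the differences ran from −0.65 (Rdh16) to 0.19 (Bco1) on the control diet and from −0.45 (Bco1) to 0.46 (Retsat) on ethanol. Whether the protein binds these sites was not tested.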

How the data were processed

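Liver RNA of 16 libraries in 4 groups was grouped by the treatment label. The authors deposited FPKM values (counted fragments scaled to gene length and library total) for 35275 Ensembl gene IDs. fastp, STAR 2.6.1, HTSeq, DESeq2 and the build mm10 are named without role in the submitters' processing notes, and strand handling is not given in the sources used here. The 9 genes, the wider list and the tests were chosen with earlier results of these data known.

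Genes with FPKM of at least 1 in at least 4 libraries (11298) were tested as log2(FPKM + 1), a scale that understates changes of low genes. limma 3.58.1 (R 4.3.3, eBayes with trend) was used for a group-means model over 16 libraries, two-sided, with Benjamini-Hochberg adjustment over all 11298 genes and calls at adjusted p under 0.05. A count test had been foreseen for raw counts and was not the main test because the table holds FPKM. The whole reads behind the FPKM were recovered from their steps: 100% of 20520 genes above 0 in at least 4 libraries gave values within 0.1 of a whole read. Tables were handled in Python 3.11.15. On simulated data 97.5% of genes changed 4-fold in the comparison of diets in WT were recovered, and 5.8% of the calls fell on genes simulated without change. The simulated reads were drawn independently, with the same spread setting for all genes. They held no library that stood apart and no component of variation shared within groups. These rates are therefore not those of the 16 libraries described here.

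All 9 genes were named. Of the wider list, at most 4 called genes per comparison were named, by smallest adjusted p, and other names are said to be chosen after values were seen. The 2 genes with the highest rank correlation to each of the 9 were also named. Alternatives were a pseudocount of 0.1, no filter, median-of-ratios scaling, voom on recovered reads, leaving out each library, and a term for the side of the first component within groups. Positions and untranslated regions come from GENCODE M21 on GRCm38.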

Additional observations from a re-analysis of the deposited data

Results flagged for a closer look

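In groups of 4 libraries, 44 groups were examined for a single value far from the others, of which chance picks about 1 in 20, and 3 were found. Rdh11 was at 19.42 FPKM in WT ethanol library 1, against 7.04 to 8.63 in the other 3 libraries of the group. Cyp26a1 was at 32 FPKM in the same library, against 2.6 to 6.74. Ddx3y, a Y-linked gene, was at 1.429 FPKM in WT ethanol library 2, against 0 to 0.0448 in the other libraries of its group, with 65 reads in that library and at most 5 in any of the 15 others.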

How the results depend on the processing

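The number of the 9 genes called moved as follows, with the cause not tested unless named. For ethanol in WT it was 1, and 2 with the side term and WT ethanol library 2 left out together. For ethanol in LKO it was 1. It was 0 with no filter, 2 with median-of-ratios scaling, 2 with voom on recovered reads, 2 without WT ethanol library 2, and 3 without that library and with the side term. For LKO against WT over both diets it was 0, still 0 without WT ethanol library 2, and 2 without that library and with the side term. The side term was not fitted with all 16 libraries. Leaving out 1 library at a time gave 1 to 2 for ethanol in WT, 0 to 2 in LKO, 2 to 4 over both genotypes and 0 to 1 for LKO against WT on ethanol. It gave 0 throughout for the control diet, for both diets averaged and for the difference between responses. With no filter Bco1 in LKO was at 2.02 (adjusted p = 0.113 by limma), with more genes adjusted for. Dhrs3 in LKO passed with median-of-ratios scaling (−1.33, adjusted p = 0.0479), with voom (−1.39, adjusted p = 0.0435) and without LKO ethanol library 4 (−1.50, adjusted p = 0.0490), all by limma. The Rarb ethanol difference in WT ranged from −0.13 to 0.48 with 1 library left out, and was below 0 at −0.04 without WT control library 3 and at −0.13 without WT ethanol library 1. The differences with an unadjusted p under 0.05 by limma, and some added ones, were recomputed under each setting. Of these 441 values, 417 kept their direction and side of the threshold, 9 no longer passed, 13 newly passed and 2 changed sign. Differences outside that set also changed sign without WT ethanol library 2, among them Rbp4 for ethanol in WT and Rarb between genotypes on ethanol. No paired analysis was possible because the labels give the groups no shared replicate numbers. Some control and ethanol titles carry adjacent numbers, but no label says what these mean, so they were not paired. Rarb had 11 reads in WT ethanol library 2, which limits that value, and 76 to 226 in the other 15 libraries.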

Other observations

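Cyp26b1, a relative of Cyp26a1 that also clears retinoic acid, was looked at after its values were seen. It measured 0.607, 3.04, 1.06 and 1.56 FPKM in WT control libraries and 3.83, 0.617, 8.38 and 14.4 FPKM in WT ethanol libraries. In LKO Cyp26b1 measured 1.25 to 1.95 FPKM on the control diet and 2.01 to 2.81 FPKM on ethanol. The Cyp26b1 ethanol difference was 1.26 in WT (adjusted p = 0.145 by limma) and 0.41 in LKO (adjusted p = 0.926). Without WT ethanol library 2, Cyp26b1 rose in WT by 1.87 (adjusted p = 0.00424 by limma), and LKO minus WT response was −1.46 (unadjusted p = 0.00493, adjusted p = 0.970). Stellate cell marker sums in WT ethanol libraries 1 to 4 were 156.2, 116.1, 292.3 and 296.3 FPKM. Kupffer cell marker sums there were 145.3, 93.2, 267.2 and 288.9 FPKM. The part of these markers in the Cyp26b1 values was not tested. In WT ethanol libraries 3 and 4 Cyp26a1 was at 2.6 and 6.74 FPKM and Cyp26b1 at its highest. In WT ethanol library 2 Cyp26a1 was at 4.11 FPKM, between those values, and Cyp26b1 was lowest of the group. In WT ethanol library 1 both were above all WT control libraries, with Cyp26a1 at 32 FPKM.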
